A study of Mus musculus with 6 samples.

Results

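The genes described here are the nuclear-encoded genes of the mitochondrial respiratory chain and ATP synthase, followed in the leukocytes of the mouse brain. They were chosen by symbol (Ndufa, Ndufb, Ndufc, Ndufs and Ndufv genes, Sdha to Sdhd, Uqcr genes, Cox4 to Cox8 genes and Atp5 genes) with at least 50 unique molecular identifiers (UMIs, each a counted transcript molecule) over all libraries. Such a symbol was borne by 93 of the 31053 features counted, and 87 passed the minimum. Cox7a1 with 77 UMIs lay just inside it and the next member, Cox6b2, had 630, while Cox4i2 with 35, Ndufa4l2 with 4, Cox8b with 1, and Cox7b2, Cox8c and a second Atp5o identifier with 0 lay outside. By complex there were 36 subunit genes of complex I, 4 of complex II, 8 of complex III, 15 of complex IV and 15 of complex V, and 9 assembly or coupling genes (8 Ndufaf genes and Atp5s).

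From the mouse brain, 6 single-cell RNA libraries were made with 3′ chemistry from living CD45-positive cells sorted after a Percoll gradient. All mice were C57BL/6 and homozygous for a floxed allele of Cd300a, which encodes an inhibitory receptor for phosphatidylserine. The groups were Cd300a-fl/fl mice (called fl/fl) and Cd300a-fl/fl Lyz2-cre mice (called Lyz2-cre), each taken as naive mice, or 1 h or 3 h into the reperfusion that ended 60 min of middle cerebral artery occlusion, a model of stroke. Each library pooled 3 brains, and each combination of genotype and time had 1 library. The Cre recombinase is driven from the Lyz2 locus, which is active in myeloid cells, and not in 1 cell type only. The series design gives the earliest time as 0 h and the sample titles as naive, and the titles were followed.

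Electrons from NADH enter the chain at complex I and those from succinate at complex II. They pass through coenzyme Q, complex III and cytochrome c to complex IV, which reduces oxygen, and complex V uses the resulting proton gradient to make ATP. Complexes I, III, IV and V combine subunits encoded in the nucleus with subunits encoded in mitochondrial DNA (the mt- genes), while complex II is nuclear throughout. NRF1 and the ETS factor GABP are textbook regulators of the nuclear subunit genes.

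Promoters were read for 72 of the 87 genes from RefSeq (GRCm38.p6), as the 250 bases before the annotated start. Both strands were searched for GCGCANGCG (the core of the NRF1 motif) and CCGGAAG (an ETS core), neither of which contains the other. GCGCANGCG stood in 15 of the 72 (20.8%) against 5.86% of 27025 genes, and CCGGAAG in 14 (19.4%) against 7.83%. The YY1 core AAGATGGCG stood in 1 of 72 (1.39%, against 0.710%) and the box CCAAT in 32 (44.4%, against 37.5%). A match is a description of letters and not a shown binding site. Of the 72 promoters, 25 (34.7%) held an NRF1, ETS or YY1 core. Among genes whose transcripts stand out in the comparisons, Uqcrc1, Sdhb, Cox7c, Ndufv3, Ndufa9 and Ndufc1 held none of these. The 5 promoters below were picked from other such genes that hold a core, 2 with an ETS core and 3 with an NRF1 core. They are written from 5′ to 3′ on the strand of the gene, and capitals mark the cores.
Uqcrh, chr4:116075071-116075320 (minus strand): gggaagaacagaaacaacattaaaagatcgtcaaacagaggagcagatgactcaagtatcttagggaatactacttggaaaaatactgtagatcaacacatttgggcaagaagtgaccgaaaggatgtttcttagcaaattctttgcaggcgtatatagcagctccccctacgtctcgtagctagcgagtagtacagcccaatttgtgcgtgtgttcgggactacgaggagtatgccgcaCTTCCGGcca
Ndufb6, chr4:40279422-40279671 (minus strand): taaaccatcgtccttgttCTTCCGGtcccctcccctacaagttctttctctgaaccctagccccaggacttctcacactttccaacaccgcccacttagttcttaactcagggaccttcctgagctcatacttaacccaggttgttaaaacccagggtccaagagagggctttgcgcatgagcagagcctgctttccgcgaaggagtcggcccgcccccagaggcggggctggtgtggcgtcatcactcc
Atp5k, chr5:108434400-108434649 (minus strand): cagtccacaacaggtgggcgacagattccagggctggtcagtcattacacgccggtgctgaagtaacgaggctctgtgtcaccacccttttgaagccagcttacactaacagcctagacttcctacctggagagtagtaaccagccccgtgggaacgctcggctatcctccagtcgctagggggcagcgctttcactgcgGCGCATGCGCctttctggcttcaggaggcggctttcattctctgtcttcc
Ndufa5, chr6:24527691-24527940 (minus strand): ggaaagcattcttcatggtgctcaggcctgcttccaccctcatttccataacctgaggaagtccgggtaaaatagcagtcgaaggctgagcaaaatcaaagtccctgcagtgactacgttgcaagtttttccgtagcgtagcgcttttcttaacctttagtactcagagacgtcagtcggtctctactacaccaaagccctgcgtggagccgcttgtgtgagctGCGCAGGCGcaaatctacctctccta
Ndufa11, chr17:56717512-56717761 (plus strand): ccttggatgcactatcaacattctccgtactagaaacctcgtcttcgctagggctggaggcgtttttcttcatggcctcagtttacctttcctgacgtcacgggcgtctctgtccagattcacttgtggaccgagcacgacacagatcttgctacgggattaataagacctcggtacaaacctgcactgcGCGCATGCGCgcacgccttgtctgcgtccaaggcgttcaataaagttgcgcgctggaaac
The ETS core lay 10 to 4 bases before the start of Uqcrh and 232 to 226 bases before that of Ndufb6. The NRF1 core lay 50 to 41 bases before the start of Atp5k, where it reads on both strands, 26 to 18 bases before 1 of 2 annotated starts of Ndufa5, and 60 to 51 bases before the start of Ndufa11, again on both strands.

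The libraries held 35479437 to 48478866 UMIs, and 47103 cells were kept, 6721 to 9622 per library. Cells were clustered without the 87 genes and the mt- genes and named from marker genes, so the class names do not use the transcripts described. Microglia-like cells numbered 4748 to 7329 per library. Monocyte-like cells numbered 110 and 247 in the naive libraries (fl/fl first, here and below), 177 and 345 at 1 h and 512 and 817 at 3 h, and neutrophil-like cells 150 and 307, 320 and 940, and 1057 and 998. Naive monocyte-like and neutrophil-like values therefore rest on few cells. The labels were checked on the targeted genes: Cd300a was at 175, 256 and 128 CPM (counts per 1000000, the UMIs of a gene scaled to the total UMIs of its class in 1 library) in fl/fl and at 16.2, 10.4 and 9.85 in Lyz2-cre neutrophil-like cells in time order, at 467, 441 and 181 against 225, 180 and 89.2 in monocyte-like cells, and at 172, 212 and 206 against 137, 171 and 163 in microglia-like cells. Lyz2 was at 19469 to 25562 CPM in fl/fl and 26.5 to 99.1 in Lyz2-cre monocyte-like cells. UMIs come from the 3′ end and no source used here names the floxed exons, so these levels do not measure deletion.

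Levels below are CPM, which are not divided by transcript length because 3′ chemistry counts 1 end of a transcript. Changes are log2 fold changes ± standard error (SE) from edgeR, fitted on all genes in a model of genotype and time, and a gene is said to be called, to rise or to fall where its Benjamini-Hochberg adjusted p was under 0.05. Each time is represented by n = 2 libraries, 1 of each genotype, and each genotype by n = 3. The model leaves 2 residual degrees of freedom, so p-values measure the departure from additive effects of genotype and time and not the spread between repeated pools.

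The 87 genes were abundant transcripts. Their median level was 87.3 CPM in microglia-like cells, where all genes tested had a median of 18.9, and 156 against 29.9 in monocyte-like and 68.1 against 21.3 in neutrophil-like cells. A change of the same size is called more readily in an abundant gene. The shares of all genes set beside the counts below are not matched for level. Cox4i1, the ubiquitous form of the regulatory subunit 4 of complex IV, held the most UMIs, 118984 in all. Together the 87 genes made up 7951 to 9505 CPM of microglia-like cells, 15950 to 20496 of monocyte-like cells and 6563 to 9412 of neutrophil-like cells.

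Microglia-like cells at 1 h were compared first with naive ones. Subunit genes of every complex were among those that rose, and no assembly gene was: of 86 genes that passed the filter on low counts 37 were higher and 1 was lower. Among all 12812 genes tested 14.0% were higher and 12.8% lower, so the share of higher genes (43.0%) was above the background and that of lower genes below it. The median change was 0.21, against -0.01 over all genes. The summed level went from 8119 and 8694 CPM in naive to 9022 and 9505 at 1 h, and the groups did not overlap.

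**Figure D1:**
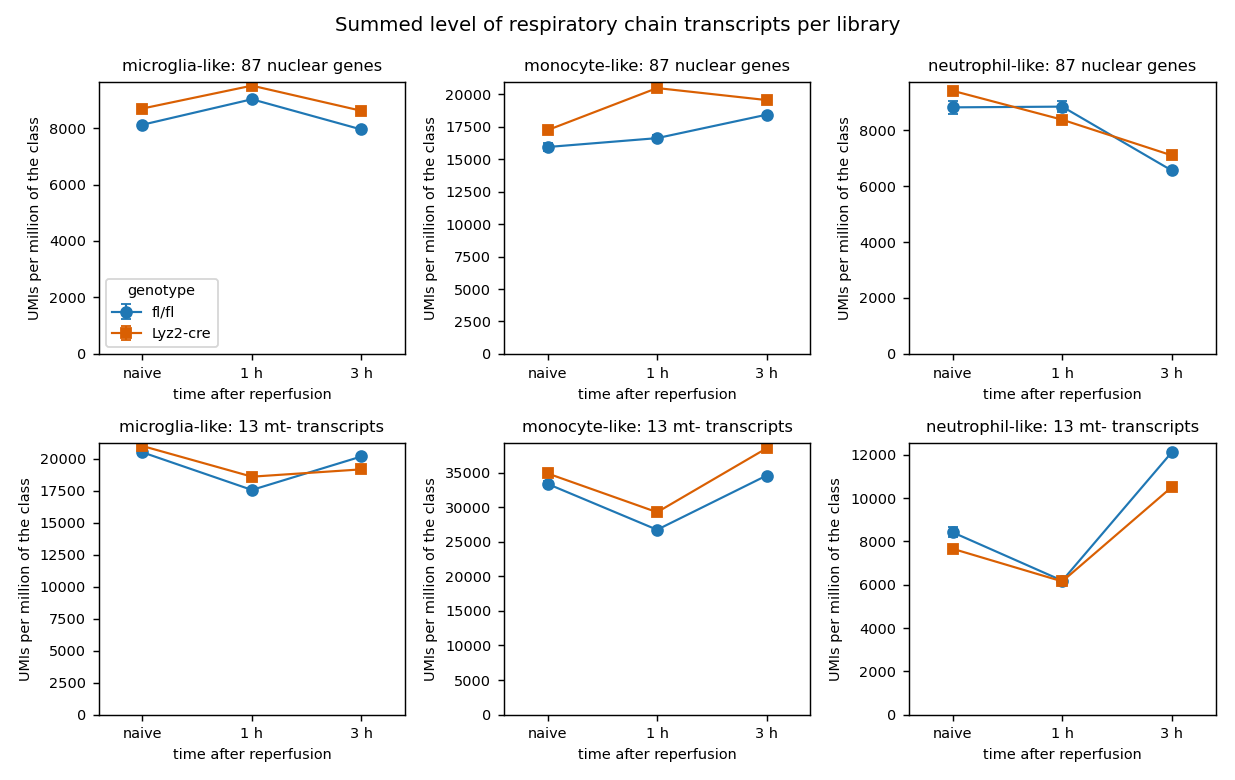
Summed level of the 87 nuclear genes (top) and of the 13 mt- transcripts (bottom) in CPM, by time, in microglia-like, monocyte-like and neutrophil-like cells. Each point is 1 library, circles fl/fl and squares Lyz2-cre, with exact Poisson 95% intervals that cover counting error only and are mostly smaller than the points. In neutrophil-like cells the nuclear sum was lowest at 3 h (6563 and 7103) where the mt- sum was highest (12115 and 10509).

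In complex III, 5 of 8 genes rose at 1 h and none fell, with a median of 0.37. Uqcrc1 (chr9:108936633-108949623, plus strand, GRCm38), a core protein of the complex, was at 84.2 and 86.3 CPM in naive, 118 and 131 at 1 h and 72.2 and 80.8 at 3 h. Both 1 h libraries lay above all others, and the change of 0.65 ± 0.08 (adjusted p = 0.000588) was the largest of the 87 genes at this time. Its partner Uqcrc2 rose by 0.45 ± 0.08 (adjusted p = 0.00441). Uqcrh, the hinge protein that contacts cytochrome c1 and whose promoter is shown above, was at 170 and 171 CPM in naive, 211 and 219 at 1 h and 217 and 220 at 3 h. It was higher at both times with no overlap, by 0.44 ± 0.08 at each (adjusted p = 0.00382 and 0.00162).

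In complex II, 3 of 4 genes rose at 1 h. Sdhd, a membrane anchor, rose by 0.40 ± 0.08 (adjusted p = 0.00515). Sdhb (chr4:140961203-140979193, plus strand), the iron-sulfur subunit, was at 113 and 111 CPM in naive, 128 and 130 at 1 h and 68.5 and 77.1 at 3 h. These 3 groups did not overlap: Sdhb rose by 0.31 ± 0.08 at 1 h (adjusted p = 0.0182) and was 0.55 ± 0.08 below naive at 3 h (log2 fold change -0.55, adjusted p = 0.000505). Sdha, the flavoprotein that oxidises succinate, was not called at 1 h, at 89.1 and 90.5 CPM in naive and 88.3 and 86.7 at 1 h.

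In complex I, 14 of 36 genes rose at 1 h and none fell, 3 of 7 core catalytic and 11 of 29 accessory subunits. Ndufa13, an accessory subunit, was at 121 and 140 CPM in naive, 162 and 187 at 1 h and 131 and 147 at 3 h. Its 1 h levels were the highest, 0.53 ± 0.08 above naive (adjusted p = 0.00156), but the gene overlaps Yjefn3 on the same strand, so some of its UMIs are uncertain. Ndufb6, an accessory subunit of the membrane arm with an ETS core in its promoter, was at 33.9 and 36.1 CPM in naive and 43.6 and 46.6 at 1 h and rose by 0.47 ± 0.08 (adjusted p = 0.00352). Of the core subunits, Ndufv1, which binds NADH, rose by 0.42 ± 0.08 (adjusted p = 0.0057) and Ndufs3 by 0.41 ± 0.08 (adjusted p = 0.00669).

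In complex IV 7 of 14 tested genes rose, with Cox4i1 going from 344 and 338 CPM to 421 and 433 (0.43 ± 0.08, adjusted p = 0.00605). Cox4i1 overlaps another annotated gene on its strand, and Cox7a2l, a factor of respiratory supercomplexes, rose by 0.35 ± 0.08. In complex V 8 of 15 rose. Atp5d, a subunit of the catalytic F1 part, was at 148 and 153 CPM in naive, 192 and 189 at 1 h and 131 and 140 at 3 h, so only the 1 h libraries stood above naive (0.45 ± 0.07, adjusted p = 0.00288). Atp5b, the catalytic beta subunit, was not called at 1 h, at 209 and 224 CPM in naive and 206 and 194 at 1 h.

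The counts for the 9 assembly genes at 1 h were too small to be told from the shares of all genes (14.0% higher and 12.8% lower). These genes were also low in level, from 2.79 (Ndufaf5) to 36.3 CPM (Ndufaf4), which makes a call less likely. None of the 9 rose, Ndufaf1, an early complex I assembly factor, fell (13.8 and 14.1 CPM in naive, 9.44 and 9.89 at 1 h; log2 fold change -0.42 ± 0.12, adjusted p = 0.0303), and the median change was -0.07. Their sum was at 199 and 204 CPM in naive, 173 and 182 at 1 h and 159 and 173 at 3 h. The naive libraries were the highest in this sum and the 1 h and 3 h libraries met at 173. The difference between assembly and subunit genes was not tested.

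The count of 38 called genes at 1 h fell when a naive or a 1 h library was left out. Such a fit has fewer residual degrees of freedom, so a lost call is not by itself a smaller change. Leaving out a naive library left 2 (fl/fl) or 3 (Lyz2-cre) called genes and leaving out a 1 h library 12 (fl/fl) or 3 (Lyz2-cre), all higher, with medians between 0.19 and 0.22, and without scaling by trimmed means of M-values (TMM), edgeR's correction for library makeup, which moved the median of all genes by -0.11, 21 rose and 1 fell. The clusters that made up the class also changed: cluster 0, whose nuclear sum was 10632 and 10359 CPM at 1 h, held 1.74% and 2.27% of microglia-like cells in naive, 36.6% and 56.8% at 1 h and 4.28% and 8.30% at 3 h, while naive cells came mostly from clusters 3 and 11, at 8080 to 8782 CPM. The part of cluster 0 in the rise was not tested.

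**Figure D2:**
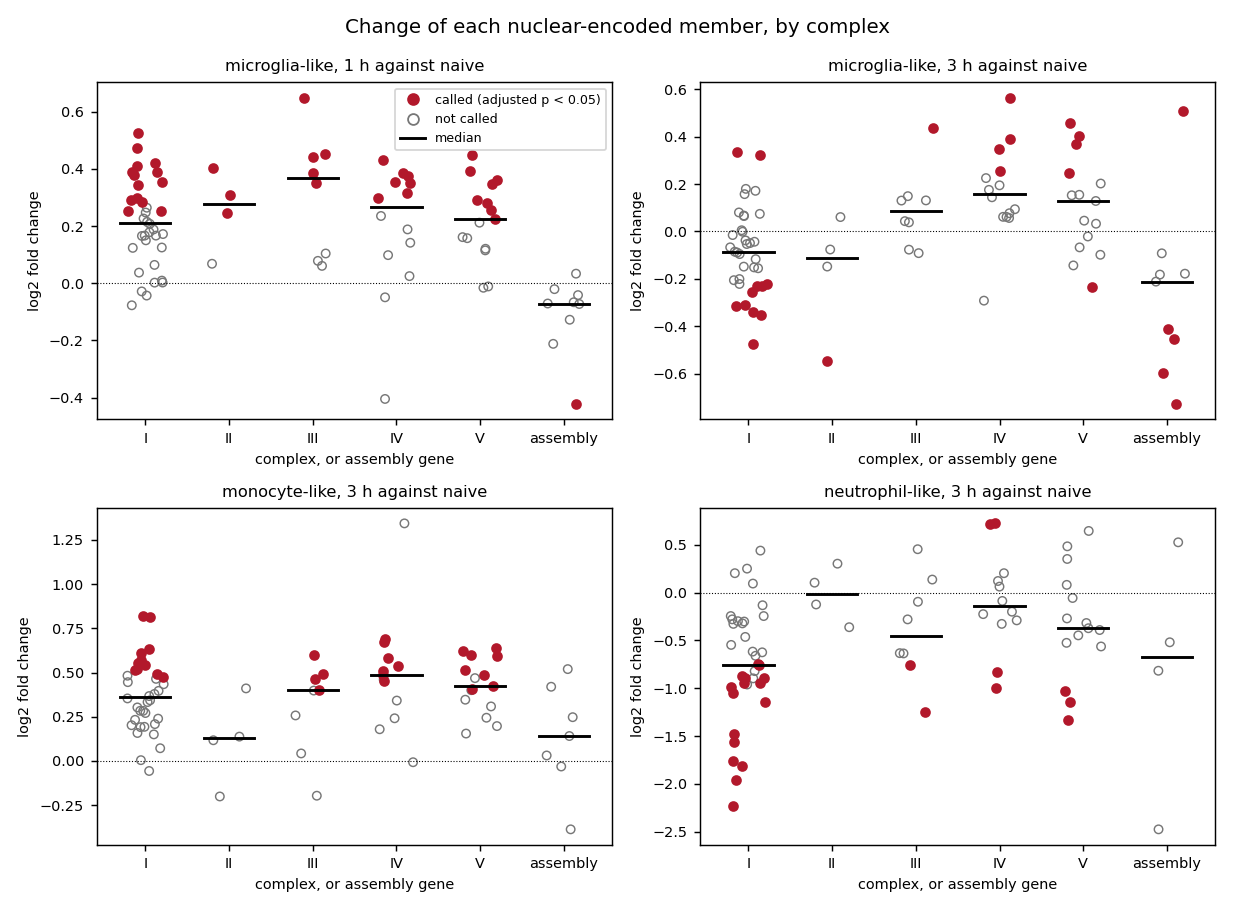
Log2 fold change of each gene that passed the count filter, by complex, in microglia-like cells at 1 h and at 3 h and in monocyte-like and neutrophil-like cells at 3 h, each against naive. Filled points were called (adjusted p under 0.05, edgeR), open points were not, bars are medians, and the vertical scales differ. Subunit genes lay mostly above 0 in microglia-like cells at 1 h and in monocyte-like cells at 3 h, and complex I genes mostly below 0 in neutrophil-like cells at 3 h.

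At 3 h the called genes of microglia-like cells lay on both sides of naive. Of 86 genes 12 were higher and 15 lower than naive, where 24.4% of all genes were higher and 23.2% lower, so the shares of the respiratory genes (14.0% and 17.4%) were below both. The median was -0.02. Complex IV had 4 higher and 0 lower of 14, complex V 4 higher and 1 lower of 15 and complex I 2 higher and 9 lower of 36, and the larger count of each was a share near that of all genes. Complex III had 1 higher of 8, complex II 1 lower of 4 and the assembly genes 1 higher and 4 lower of 9.

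Of the 12 genes that rose at 3 h, 4 belonged to complex IV, 4 to complex V, 2 to complex I and 1 each to complex III and the assembly genes. Cox7c, a small complex IV subunit, was at 139 and 166 CPM in naive, 173 and 187 at 1 h and 200 and 225 at 3 h. Its levels were ordered by time without overlap and its change at 3 h was 0.56 ± 0.08 (adjusted p = 0.000382). Atp5k, the membrane subunit e of complex V whose promoter is shown above, was at 36.3 and 50.6 CPM in naive, 36.4 and 42.6 at 1 h and 47.5 and 60.7 at 3 h. Here the groups overlapped while each genotype rose, and the change was 0.40 ± 0.09 (adjusted p = 0.00401). Atp5b reached 283 and 279 CPM (0.46 ± 0.08, adjusted p = 0.00148), Cox6c, another small complex IV subunit, rose by 0.35 ± 0.08, and the accessory complex I subunits Ndufa1 and Ndufa2 by 0.32 ± 0.10 and 0.33 ± 0.08.

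Of the 15 lower genes at 3 h, 9 were complex I subunits and 4 assembly genes, and the others were Sdhb and Atp5g2. Ndufaf7 (chr17:78937136-78948052, plus strand), a methyltransferase that modifies a complex I core subunit, was at 42.0 and 38.8 CPM in naive, 36.1 and 41.0 at 1 h and 21.2 and 25.1 at 3 h. Only the 3 h libraries were low, by a log2 change of -0.73 ± 0.11 (adjusted p = 0.000549). Ndufaf3 changed by -0.60 ± 0.10 (adjusted p = 0.0009), whereas Ndufaf4, which acts with it in complex I assembly, went from 34 and 33.6 CPM to 45.4 and 45.6 (0.51 ± 0.08, adjusted p = 0.000914). Among subunits, Ndufb4 changed by -0.48 ± 0.08, Ndufv3 by -0.35 ± 0.08, Ndufa9 by -0.34 ± 0.08, Ndufa10 by -0.31 ± 0.08 and the core subunits Ndufs7 and Ndufv2 by -0.31 ± 0.09 and -0.26 ± 0.08. Without the fl/fl naive library 3 were higher and 5 lower, without the fl/fl 3 h library 9 and 8, and DESeq2 called 9 and 8. Without TMM scaling 9 rose and 21 fell.

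From 1 h to 3 h most of the called genes of microglia-like cells were lower. Of 86 genes 40 were lower and 4 higher, where 22.1% of all genes were lower and 25.4% higher, and the median was -0.21 against 0.03 over all genes. The 40 lower genes were 46.5% of those tested. Complex I gave 22 lower and none higher of 36, with 6 of 7 core subunits among the lower, complex II 3 lower of 4, complex III 3 lower of 8, complex IV 4 lower and 1 higher of 14 and complex V 5 lower and 2 higher of 15. Sdhb had the largest change, -0.85 ± 0.08 (adjusted p = 6.58e-05), then Ndufaf7 at -0.76 ± 0.11, Uqcrc1 at -0.73 ± 0.08, Ndufv3 at -0.61 ± 0.08 and Ndufs7 at -0.60 ± 0.09. The higher ones were Ndufaf4 (0.53 ± 0.08), Atp5b (0.47 ± 0.08), Atp5k (0.42 ± 0.09) and Cox7c (0.21 ± 0.08, adjusted p = 0.0462), and Cox7c lost its call in DESeq2 and without any 1 library. Without the Lyz2-cre 1 h library 21 were lower and 2 higher. This comparison shares its 1 h libraries with the comparison of 1 h against naive.

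The 3 genes for subunit c of the proton-carrying ring of complex V, whose mature proteins are identical, did not move together in microglia-like cells. Atp5g1 was at 116 and 124 CPM in naive, 131 and 135 at 1 h and 132 and 137 at 3 h (0.26 ± 0.08 and 0.25 ± 0.08). Atp5g2, the most abundant of them, was at 275 and 269, 318 and 330, and 215 and 221 CPM, higher at 1 h (0.36 ± 0.08, adjusted p = 0.0101) and lower at 3 h (-0.24 ± 0.08, adjusted p = 0.0347) with no overlap. Atp5g3 was not called at either time, at 57.9 and 62.1, 60.6 and 63.6, and 60.4 and 65.7 CPM. The calls of Atp5g1 at both times and of Atp5g2 at 3 h were lost with DESeq2 and without either naive library.

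In monocyte-like cells genes were called at 3 h and not at 1 h, and that difference between times was tested only as 3 h against 1 h. At 1 h no gene was called, by edgeR or by DESeq2, of 83 tested (17 at an unadjusted p under 0.05), where 0.809% of all genes were higher and 0.621% lower, and the median change was 0.22. Without the fl/fl 1 h or the fl/fl naive library 9 and 2 genes were called at 1 h, all higher. At 3 h 30 of 83 were higher than naive (36.1%) and none lower, where 13.2% of all genes were higher and 11.9% lower, with a median of 0.40 against -0.02 over all genes. Complex I gave 11 higher of 36, complex III 4 of 8, complex IV 7 of 13 and complex V 8 of 15, while none of 4 complex II genes and none of 7 tested assembly genes was called. The summed level was 15950 and 17254 CPM in naive, 16635 and 20496 at 1 h and 18441 and 19570 at 3 h, so the 3 h libraries lay above the naive ones and below the Lyz2-cre 1 h library.

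Ndufc1, a membrane-arm subunit of complex I, was at 62.4 and 101 CPM in naive, 97.0 and 122 at 1 h and 119 and 134 at 3 h. Both 3 h levels were above both naive levels, by 0.82 ± 0.17 (adjusted p = 0.00538). Ndufa1 was at 87.3 and 141, 128 and 155, and 166 and 183 CPM (0.81 ± 0.17, adjusted p = 0.00551), in the same order. Cox7c was at 331 and 412, 399 and 451, and 500 and 541 CPM (0.69 ± 0.14, adjusted p = 0.00457). For these 3 genes the fl/fl naive library was the lowest of all. Cox7b, a further small complex IV subunit, rose by 0.67 ± 0.16 (adjusted p = 0.0136) and Atp5f1, subunit b of the stalk of complex V, from 393 and 379 CPM to 518 and 527 (0.64 ± 0.14, adjusted p = 0.00849).

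From 1 h to 3 h 4 genes were higher and 2 lower of 83, where 9.67% of all genes were higher and 8.05% lower, so the share of the respiratory genes was below the background. Atp5k rose by 0.65 ± 0.15, Uqcr11 and Uqcr10, small complex III subunits, by 0.51 ± 0.14 and 0.49 ± 0.14, and Cox6c by 0.46 ± 0.14. Ndufaf7 went from 48.1 and 49.3 CPM to 20.6 and 25.9 (-0.93 ± 0.19, adjusted p = 0.00953) and Uqcrc1 from 125 and 199 to 90.1 and 103 (-0.62 ± 0.19, adjusted p = 0.0470), both also lower over this interval in microglia-like cells. DESeq2 called no gene in this comparison, and without TMM scaling 1 was higher and 4 were lower. Without the fl/fl naive, Lyz2-cre naive or Lyz2-cre 1 h library 15, 13 and 13 genes were called and at 3 h leaving out fl/fl left 0 and leaving out Lyz2-cre left 1.

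The monocyte-like rise at 3 h moved with the makeup of the class and the scaling. Cluster 9, which holds cells with Vcan, Fn1 and Plac8, made up 48.2% and 37.7% of the class in naive, 48.6% and 51.0% at 1 h and 81.4% and 83.7% at 3 h, and its nuclear sum of 17469 to 22878 CPM was above the 13283 to 14857 CPM of cluster 18, led by Ace, Ear2 and Treml4. Within cluster 9 alone 3 genes were called at 3 h against naive, all higher, with a median of 0.26, and from 1 h to 3 h 3 were lower. Without TMM scaling, which moved the median of all genes by -0.20, 4 rose at 3 h. DESeq2 called 10, and 0, 7 and 13 were called without the fl/fl 3 h, Lyz2-cre 3 h or Lyz2-cre naive library, and 47 and 46 without that of fl/fl or of Lyz2-cre at 1 h. Median UMIs per cell were 6514.5 and 6398 in naive, 5741 and 5929 at 1 h and 10225.5 and 8857 at 3 h. Microglia markers in the class summed to 3060 and 1944 CPM in naive, 1868 and 2015 at 1 h and 510 and 475 at 3 h, with none of the 10 at 0, and neutrophil markers to 195 and 248, 274 and 957, and 3239 and 1781 CPM, with none of 11 at 0. Their part in the rise was not tested.

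**Figure D3:**
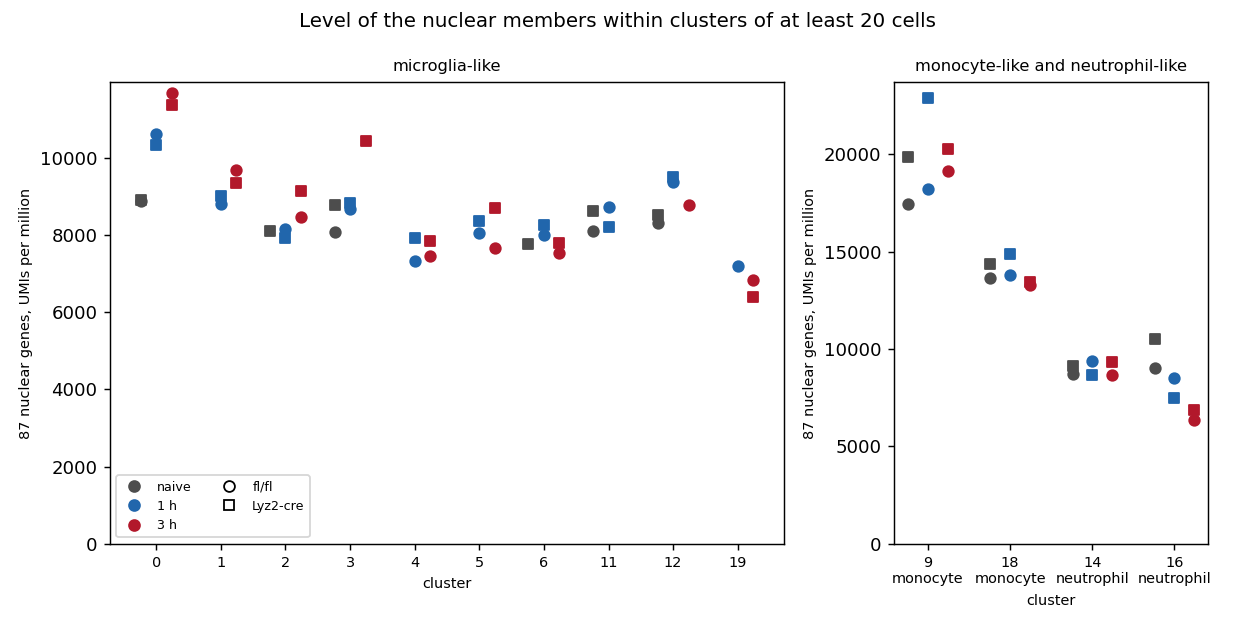
Summed level of the 87 nuclear genes in CPM, in each cluster with at least 20 cells, for microglia-like cells (left) and for monocyte-like and neutrophil-like cells (right). Each point is 1 library, with colour for time and shape for genotype. Monocyte-like cluster 9 lay above cluster 18 in every library. Neutrophil-like cluster 16 fell to 6355 and 6890 at 3 h while cluster 14 lay between 8659 and 9404. The 3 h values of cluster 14 rest on few cells, since nearly all of the class was then in cluster 16.

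In neutrophil-like cells most of the called genes were lower at 3 h. At 1 h no gene was called by edgeR or DESeq2 of 79 tested (2 at an unadjusted p under 0.05), where 0.985% of all genes were higher and 0.0259% lower. At 3 h 23 were lower (29.1%) and 2 higher than naive, where 11.6% of all genes were lower and 18.2% higher, and the median was -0.39 against -0.06 over all genes. The summed level was 8820 and 9412 CPM in naive, 8846 and 8378 at 1 h and 6563 and 7103 at 3 h, the 3 h libraries being the lowest. Complex I held most of the lower genes: 16 of its 36 were lower, 15 of 29 accessory and 1 of 7 core subunits, with a median of -0.75. Complexes III, IV and V gave 2 of 8, 2 of 12 and 3 of 15 lower, with 2 complex IV genes higher, and neither the 4 complex II genes nor the 4 tested assembly genes were called.

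The complex I sum in neutrophil-like cells was 2875 and 3068 CPM in naive, 2771 and 2602 at 1 h and 1648 and 1860 at 3 h. Ndufv3 (chr17:31520115-31531331, plus strand), an accessory subunit of the NADH-binding module, was at 113 and 139 CPM in naive, 82.5 and 107 at 1 h and 27.5 and 24.5 at 3 h. Its 3 h levels were far below all others and it fell by 1.95 ± 0.28 on the log2 scale (adjusted p = 0.000494). Ndufa11, a membrane-arm subunit with an NRF1 core in its promoter, was at 25.4 and 51.7, 36 and 52.3, and 8.86 and 9.49 CPM, lowest at 3 h (log2 fold change -1.76 ± 0.35, adjusted p = 0.00331).

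Ndufa9, which sits near the coenzyme Q site, was at 27.0 and 17.4 CPM in naive, 11.6 and 9.30 at 1 h and 2.07 and 5.47 at 3 h, without overlap between any of the times (log2 fold change -2.23 ± 0.47 at 3 h, adjusted p = 0.00482). Ndufa5, another subunit of that module and also shown above, was at 9.52 and 16.8, 12.7 and 11.1, and 2.36 and 4.01 CPM (-1.82 ± 0.47, adjusted p = 0.0135). Its naive and 1 h levels overlapped and those at 3 h were the lowest. The levels of Ndufa9 and Ndufa5 rest on few UMIs per library, since 1 UMI is 1.59 CPM in the fl/fl naive neutrophil-like cells. Ndufc1, which rose in monocyte-like cells, was at 28.6 and 42.7, 27.5 and 37.0, and 6.79 and 13.5 CPM here (-1.56 ± 0.30, adjusted p = 0.00268).

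Outside complex I, Ndufa4, now counted as a complex IV subunit, was at 88.9 and 115 CPM in naive, 82.5 and 101 at 1 h and 39.6 and 43.4 at 3 h (-0.99 ± 0.25, adjusted p = 0.0122), the 3 h libraries again being lowest. Of the c-ring genes Atp5g1 and Atp5g3 were lower, Atp5g1 from 47.6 and 39.1 CPM to 15.1 and 16.4 (-1.14 ± 0.28, adjusted p = 0.0106) and Atp5g3 by -1.03 ± 0.31. None of the 5 F1 genes was called. The 2 higher genes were Cox8a, a small complex IV subunit (441 and 503 CPM in naive, 595 and 671 at 3 h; 0.71 ± 0.23, adjusted p = 0.0352), and Cox7a2l (138 and 156 against 206 and 193; 0.72 ± 0.23, adjusted p = 0.0350), and neither was called with DESeq2 or without TMM scaling. Cox4i1 was not called, at 444 and 417 CPM in naive and 355 and 376 at 3 h.

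From 1 h to 3 h 17 of 79 genes were lower (21.5%) and none higher, where 10.9% of all genes were lower and 15.7% higher, with a median of -0.47. Of the 17, 10 belonged to complex I, 1 to complex II and 2 each to complexes III, IV and V. Ndufa11 changed by -2.09 ± 0.33 (adjusted p = 0.00141), Ndufv3 by -1.71 ± 0.28, Ndufa5 by -1.70 ± 0.44, Ndufc2 by -1.67 ± 0.30 and Ndufc1 by -1.56 ± 0.28.

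The makeup of the neutrophil-like class and its marker levels also changed with time. Cluster 16 held 52.7% and 41.0% of the class in naive, 82.5% and 48.0% at 1 h and 96.7% and 96.6% at 3 h. Within it alone the nuclear sum was 9020 and 10491 CPM in naive, 8531 and 7489 at 1 h and 6355 and 6890 at 3 h. There 7 genes were lower at 3 h against naive and 4 from 1 h to 3 h. The median at 3 h against naive was -0.43 in this cluster and -0.39 in the whole class. The 11 neutrophil markers summed to 315102 and 394891 CPM in naive, 252074 and 394580 at 1 h and 199809 and 176381 at 3 h, none at 0. The 10 microglia markers in the class summed to 2785 and 904, 3149 and 1708, and 340 and 563 CPM, none at 0. DESeq2 called 9 genes at 3 h against naive and 7 against 1 h, all lower. Against naive 6, 4 and 15 were called without the fl/fl naive, Lyz2-cre naive or Lyz2-cre 3 h library, and against 1 h 11 were called without the Lyz2-cre 1 h library. Without TMM scaling, which moved the median of all genes by -0.29, 30 were lower at 3 h and none higher. The part of markers and clusters in the fall was not tested.

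Whether the 3 h change differed between classes was tested with an interaction term, added after the data were seen. The 3 h change was lower in neutrophil-like than in monocyte-like cells for 42 of 83 genes (50.6%) and higher for none, where 7.59% of all genes were lower and 11.9% higher. Of the 42, 24 were complex I genes, 3 complex III, 6 complex IV, 8 complex V and 1 an assembly gene. Ndufc1 differed by -2.38 ± 0.34 (adjusted p = 2.12e-05), Ndufa9 by -2.28 ± 0.45, Ndufa5 by -2.14 ± 0.47 and Ndufv3 by -2.11 ± 0.27 (adjusted p = 6.11e-06). Cox6b2 also passed, but it had 0 UMIs in 3 of the 6 neutrophil-like libraries, so its fitted value sets no bound. Without the Lyz2-cre naive library 12 genes were called.

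Against microglia-like cells the 3 h change of neutrophil-like cells was lower for 17 of 86 genes and higher for 1, where 6.08% of all genes were lower and 9.65% higher. Ndufa9 (-1.76 ± 0.43), Ndufa5 (-1.65 ± 0.49), Ndufa11 (-1.56 ± 0.34) and Ndufc1 (-1.55 ± 0.34, adjusted p = 0.00014) were among the lower. The 1 higher was Ndufaf7 (1.35 ± 0.40, adjusted p = 0.00809), at 11.1 and 13.8 CPM in naive and 12.7 and 17.9 at 3 h in neutrophil-like cells. Without the naive library of Lyz2-cre mice 5 genes were called, without either 3 h library 9, and with a stricter cell filter 6. Both tests had the library as a block, with each class sum of a library as 1 sample, and both share the neutrophil-like libraries.

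The 13 mt- transcripts were counted in the same cells. In microglia-like cells at 1 h 1 rose and 5 fell, with a median of -0.17, while 37 nuclear genes rose. Their sum was 20513 and 21008 CPM in naive, 17571 and 18610 at 1 h and 20189 and 19181 at 3 h, lowest at 1 h. The nuclear sum divided by the mt- sum was 0.396 and 0.414 in naive, 0.513 and 0.511 at 1 h and 0.394 and 0.449 at 3 h, so the 1 h libraries were the highest. For complex V this ratio was 0.714 and 0.747, 1.08 and 1.06, and 0.592 and 0.678, and for complex III, whose mt- member is mt-Cytb, it was 0.333 and 0.368, 0.354 and 0.349, and 0.409 and 0.455.

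mt-Nd3, a complex I core subunit, was lower at 1 h in all 3 classes. In microglia-like cells it was at 489 and 698 CPM in naive, 267 and 261 at 1 h and 597 and 638 at 3 h (log2 fold change -1.05 ± 0.13 at 1 h, adjusted p = 0.00107). In monocyte-like cells the 1 h change was -1.01 ± 0.15 (adjusted p = 0.0149) and in neutrophil-like cells, where the levels were 129 and 109, 53.9 and 40.3, and 202 and 237 CPM, it was -1.21 ± 0.23 (adjusted p = 0.0327). The 1 h libraries were the lowest in each of these classes. mt-Nd6, which is encoded on the other strand of mitochondrial DNA than the remaining 12, went from 10.8 and 10.5 CPM to 3.82 and 3.49 in microglia-like cells (-1.43 ± 0.14, adjusted p = 0.000165), and mt-Cytb rose by 0.33 ± 0.10 (adjusted p = 0.0315).

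At 3 h mt-Atp8, a small complex V subunit that shares its transcript with mt-Atp6, was higher than naive in all 3 classes. It was at 11.5 and 17.5 CPM in naive, 7.01 and 7.88 at 1 h and 54.6 and 56.4 at 3 h in microglia-like cells (2.03 ± 0.14, adjusted p = 2.25e-05), and the groups did not overlap. The change was 1.90 ± 0.24 in monocyte-like (adjusted p = 0.000403) and 2.11 ± 0.53 in neutrophil-like cells. mt-Atp6 in microglia-like cells changed by 0.29 ± 0.10 (adjusted p = 0.0409), so the values of this pair differed in size although they come from a shared transcript, and how 3′ chemistry divides UMIs between them is not given in the sources used here. mt-Nd4l, which overlaps mt-Nd4 on a shared transcript, changed by 0.79 ± 0.16 and mt-Nd4 by -0.27 ± 0.09 in microglia-like cells.

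**Figure D4:**
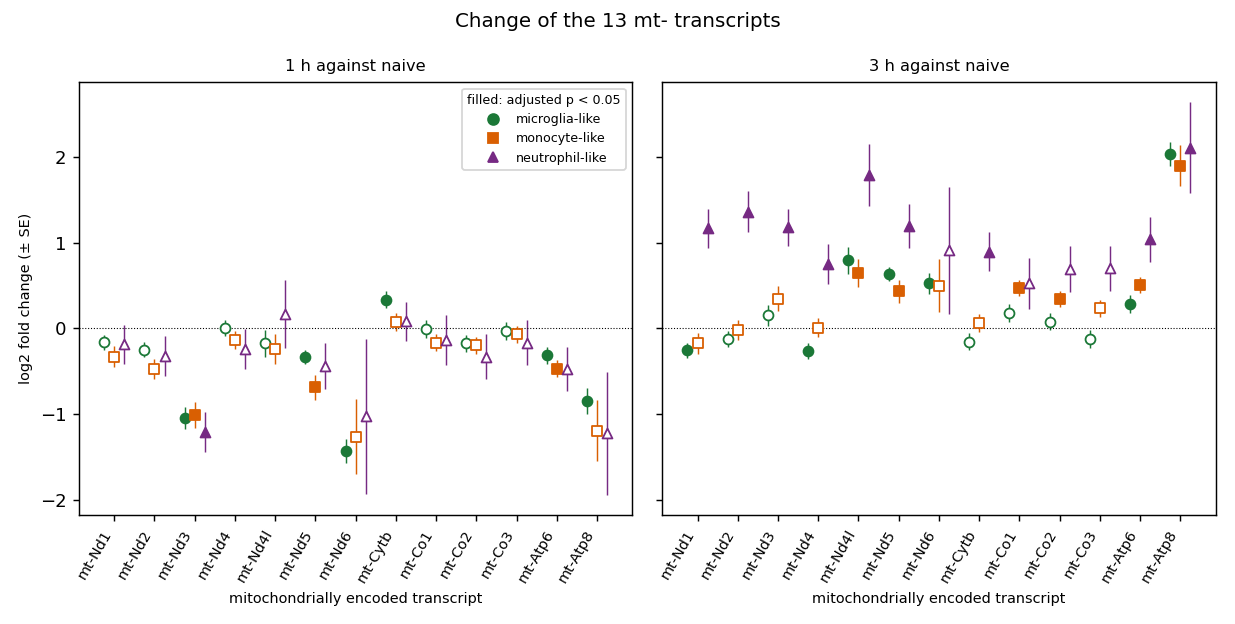
Log2 fold change ± SE of each of the 13 mt- transcripts at 1 h (left) and 3 h (right) against naive, in microglia-like, monocyte-like and neutrophil-like cells (n = 2 libraries per time). Filled points were called (adjusted p under 0.05, edgeR). mt-Nd3 lay near -1 in all 3 classes at 1 h, mt-Atp8 near 2 in all 3 at 3 h, and neutrophil-like cells were above the other classes for most transcripts at 3 h.

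In neutrophil-like cells at 3 h 9 of 13 mt- transcripts rose, none fell and the median was 1.04, while 23 nuclear genes fell. mt-Nd2, a core complex I subunit, was at 411 and 225 CPM in naive, 286 and 171 at 1 h and 640 and 635 at 3 h (1.37 ± 0.24). The mt- sum went from 8419 and 7660 in naive to 6187 and 6154 at 1 h and 12115 and 10509 at 3 h, the 3 groups without overlap. With a stricter cell filter (1000 genes, 5% mt- UMIs), which kept 73 of 320 fl/fl cells at 1 h, it was 8574 and 7781, 7720 and 6909, and 10278 and 8189, and the 3 h and naive libraries overlapped. The ratio of nuclear to mt- UMIs was 1.05 and 1.23 in naive, 1.43 and 1.36 at 1 h and 0.542 and 0.676 at 3 h. For complex I alone it was 1.71 and 2.80, 2.41 and 3.07, and 0.686 and 0.829, lowest at 3 h. The difference of the 3 h change was higher than in microglia-like cells for 8 mt- transcripts and than in monocyte-like cells for 7, and lower for none. Barcodes over 10% mt- UMIs had been removed, 21 to 42 per naive or 1 h library and 91 and 111 at 3 h, and the part of RNA quality was not tested.

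Monocyte-like cells showed both sets higher at 3 h, with 6 of 13 mt- transcripts called higher (median 0.35) beside the 30 nuclear genes. At 1 h 3 mt- transcripts were lower and none higher. The mt- sum was 33369 and 34882 CPM in naive, 26740 and 29277 at 1 h and 34577 and 38518 at 3 h, and the ratio of nuclear to mt- UMIs was highest at 1 h (0.622 and 0.700, against 0.478 and 0.495 in naive and 0.533 and 0.508 at 3 h).

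Other genes of the pathway were taken from lists chosen with earlier results of these data known. Their counts stand beside the shares of all genes given above: in microglia-like cells 14.0% higher and 12.8% lower at 1 h and 24.4% and 23.2% at 3 h, and at 3 h 13.2% and 11.9% in monocyte-like and 18.2% and 11.6% in neutrophil-like cells. Of 18 genes for electron carriers and coenzyme Q synthesis, 5 rose and none fell in microglia-like cells at 1 h, among them Etfb, an electron-transfer flavoprotein (0.55 ± 0.08), and Cyc1, the cytochrome c1 of complex III, which the symbol rule misses (0.46 ± 0.08). At 3 h 2 rose and 6 fell, 33.3% of the list being lower. Coq10b, which binds coenzyme Q, was at 79.9 and 78.6 CPM in naive, 97.8 and 101 at 1 h and 196 and 160 at 3 h in microglia-like cells, ordered by time (1.25 ± 0.11 at 3 h, adjusted p = 4.41e-05). In neutrophil-like cells Coq10b was at 46.0 and 43.3, 180 and 140, and 308 and 347 CPM (3.16 ± 0.24, adjusted p = 1.3e-05), again ordered by time, while Cyc1 went from 36.5 and 35.5 CPM to 10.3 and 11.7 (-1.38 ± 0.32). Of the 11 genes of this list tested there 1 rose and 3 fell.

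Of 32 further assembly genes 4 rose and 3 fell in microglia-like cells at 1 h and 7 rose and 11 fell at 3 h. The higher shares, 12.5% and 21.9%, lay slightly below those of all genes and the lower share at 3 h (34.4%) above it. Sco2, a copper chaperone of complex IV, changed by 0.83 ± 0.09 at 3 h. Cox17, which delivers copper to complex IV, rose at 3 h in monocyte-like cells (67.4 and 91.3 CPM in naive, 154 and 170 at 3 h; 1.23 ± 0.16) and in neutrophil-like cells (136 and 152 against 324 and 515; 1.80 ± 0.25, adjusted p = 0.000375). There 2 of 15 tested assembly genes rose and 3 fell, with Cox20, a complex IV assembly factor, at -2 ± 0.32. In monocyte-like cells 5 of 29 rose.

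The 78 genes for proteins of the mitochondrial ribosome, which translates the mt- transcripts, gave 11 higher and 4 lower in microglia-like cells at 1 h and 8 higher and 27 lower at 3 h, with Mrpl14 and Mrpl42 at -0.60 ± 0.10 and -0.58 ± 0.08. The higher share at 1 h (14.1%) was that of all genes and the lower share at 3 h (34.6%) was above it. At 3 h 9 of 77 rose in monocyte-like cells, and in neutrophil-like cells 3 of 66 rose and 16 fell, with a median of -0.91. Mrpl52 rose in both, by 1.24 ± 0.15 and 3.15 ± 0.55. Of 16 genes of the tricarboxylic acid cycle, which feeds the chain, 5 rose in microglia-like cells at 1 h (Fh1, fumarate hydratase, by 0.47 ± 0.10), 1 rose and 2 fell at 3 h, and 5 of 12 fell in neutrophil-like cells at 3 h. These were 31.2% higher at 1 h and 41.7% lower in neutrophil-like cells, both above the share of all genes, and at 3 h in microglia-like cells both shares were below it.

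Among 11 tested regulators of mitochondrial biogenesis, 2 rose and 3 fell in microglia-like cells at 3 h, shares (18.2% and 27.3%) near those of all genes. Pprc1, a coactivator related to PGC-1, went from 18.1 and 18.2 CPM in naive to 35.4 and 28.5 (0.89 ± 0.12, adjusted p = 0.000301), Yy1 rose by 0.31 ± 0.08, and Esrra and Tfb1m changed by -0.38 ± 0.09 and -0.73 ± 0.22. At 1 h Ppargc1b, another coactivator, changed by -0.71 ± 0.20 and none of the list rose. Of 12 genes for expression of mitochondrial DNA 1 rose and 2 fell at 1 h and 2 rose and 1 fell at 3 h, with Polg2, the accessory subunit of the mitochondrial DNA polymerase, at -1 ± 0.11 and -0.95 ± 0.11. The shares of this list, 8.33% higher and 16.7% lower at 1 h and 16.7% and 8.33% at 3 h, were near or below those of all genes. Of 10 clearance and dynamics genes 4 rose at 1 h (40.0%) and 1 rose and 3 fell at 3 h. Bnip3, a receptor for the removal of mitochondria, went from 22.2 and 22.2 CPM to 102 and 64.6 at 3 h in neutrophil-like cells (2.07 ± 0.31, adjusted p = 0.000537).

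Between genotypes no gene of the 87 was called in any class. In microglia-like cells 0 of 86 were called (8 at an unadjusted p under 0.05, 0 by DESeq2), where 0.0468% of all genes were higher and 0.421% lower in Lyz2-cre, and the median was 0.05. In monocyte-like cells 0 of 83 were called (9 unadjusted, 0 by DESeq2; background 0.0111% higher and 0.0333% lower), with a median of 0.15, and in neutrophil-like cells 0 of 79 (5 unadjusted, 0 by DESeq2; background 0.0% higher and 0.0259% lower), with a median of 0.18. None of the 13 mt- transcripts was called either, with 0, 3 and 1 at an unadjusted p under 0.05 in the 3 classes. In microglia-like cells the nuclear sum was higher in the Lyz2-cre library at each time, at 8694, 9505 and 8613 CPM against 8119, 9022 and 7951. In both microglia-like and neutrophil-like cells a few genes were called when a 3 h library was left out, all higher in Lyz2-cre. Leaving out either 3 h library gives the same test of genotype. The remaining 3 h library is then fitted by its own time term, so only the naive and 1 h libraries compare the genotypes. With 1 library per genotype and time a difference between genotypes and one between pools cannot be told apart.

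The classes were then compared with each other. Monocyte-like against microglia-like cells, with the library as a block and n = 6 libraries, 73 of 87 genes were higher and 4 lower, where 30.4% of all genes were higher and 39.7% lower, with a median of 1.26 against -0.19. All 15 complex V and all 8 complex III genes, 14 of 15 complex IV, 31 of 36 complex I and 3 of 4 complex II genes were higher, against 2 higher and 3 lower of the 9 assembly genes. Atp5l, the membrane subunit g of complex V, differed by 2.06 ± 0.10, Ndufa1 by 2 ± 0.12 and Cox6c by 1.90 ± 0.11. The 4 lower genes were the isoform Cox6a2, the coupling gene Atp5s (-1.65 ± 0.31) and the assembly factors Ndufaf4 (-0.86 ± 0.13) and Ndufaf2 (-0.45 ± 0.14).

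Neutrophil-like against microglia-like cells, 48 of 86 genes were higher and 19 lower, where 29.8% of all genes were higher and 44.5% lower, with a median of 0.54 against -0.47. This direction depends on the scaling: without TMM factors, which moved the median of all genes by -1.18, 18 were higher and 47 lower and the median was -0.61. Relative to the other genes of the cells, subunits and assembly genes were apart under the TMM scaling. Of 14 complex IV genes 11 were higher (median 1.24), and 6 of 9 assembly genes were lower and none higher (median -1.46), with Ndufaf6 at -3.70 ± 0.57, Ndufaf4 at -3.22 ± 0.32, Ndufaf5 at -2.93 ± 0.79 and Ndufaf2 at -2.39 ± 0.38. Atp5l (2.55 ± 0.17) and Ndufa3 (2.28 ± 0.15) led the higher genes. For mt- transcripts 11 of 13 were higher in monocyte-like than in microglia-like cells, and 1 was higher and 4 lower in neutrophil-like cells.

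**Figure D5:**
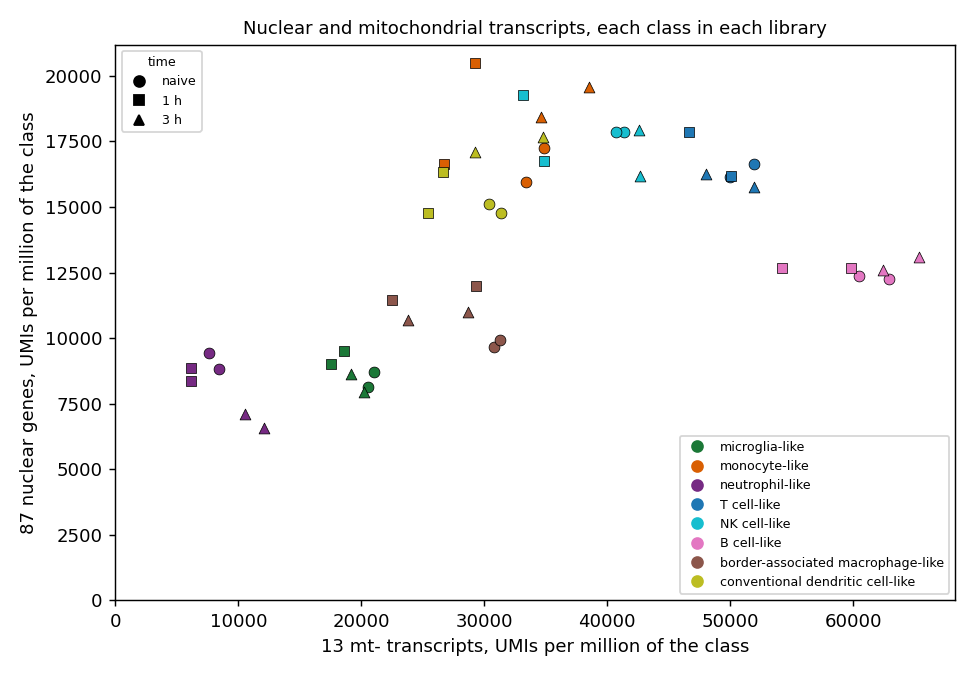
Summed level of the 87 nuclear genes against that of the 13 mt- transcripts, both in CPM, for 8 marker-named classes. Each point is 1 library, with colour for class and shape for time. Of these 8 classes, B-cell-like cells held the most mt- UMIs (54208 to 65346) and neutrophil-like cells the fewest (6154 to 12115). Monocyte-like and NK-cell-like cells reached the highest nuclear sums. Barcodes over 10% mt- UMIs had been removed. The median share in B-cell-like cells was 5.41% to 7.51%, so this filter bounds their mt- level.

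Lymphocytes and rarer myeloid cells, which were not tested, are given by their range over the 6 libraries. The nuclear sum was 15755 to 17848 CPM in T-cell-like, 16194 to 19273 in NK-cell-like, 12254 to 13094 in B-cell-like, 14764 to 17670 in conventional dendritic-cell-like and 9663 to 11998 in border-associated macrophage-like cells. The mt- sum was 46652 to 51961, 33153 to 42666, 54208 to 65346, 25441 to 34794 and 22488 to 31259 CPM in the same order. The ranges of T-cell-like and monocyte-like cells overlapped in the nuclear sum and not in the mt- sum.

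Isoforms outside the ubiquitous set were rare, with 1 exception. Cox6a2, the heart and muscle form of subunit 6A, was at 1258 CPM in plasmacytoid dendritic-cell-like cells (491 UMIs over 43 cells of all libraries), at 7.02 in NK-cell-like and 5.69 in microglia-like cells and at most at 2.25 in the other 6 of these classes. In these plasmacytoid cells it stood above its ubiquitous partner Cox6a1 (238 CPM). Cox6b2, the testis form of subunit 6B, was at 11.6 CPM in conventional dendritic-cell-like, 9.67 in monocyte-like and 1.08 in microglia-like cells, against 334, 414 and 140 CPM of Cox6b1. Cox7a1, Cox4i2 and Ndufa4l2 stayed under 1 CPM in each of these classes. The c-subunit genes Atp5g1, Atp5g2 and Atp5g3 were at 129, 274 and 61.8 CPM in microglia-like, 234, 362 and 148 in monocyte-like and 29.3, 52.4 and 31.8 in neutrophil-like cells, so Atp5g2 was the most abundant in each.

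Among genes that changed, the promoter cores were counted as a description. Of the 32 matched genes that rose in microglia-like cells at 1 h, 5 held GCGCANGCG (15.6%) and 7 CCGGAAG (21.9%). Of the 13 that fell in microglia-like cells at 3 h, 2 (15.4%) and 1 (7.69%) held them. Of the 22 that fell in neutrophil-like cells at 3 h, 4 (18.2%) and 3 (13.6%) held them, and of the 25 that rose in monocyte-like cells at 3 h, 5 (20%) and 7 (28.0%). Over all 72 the shares were 20.8% and 19.4%.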

How the data were processed

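Transcripts were measured by droplet single-cell RNA sequencing in 6 libraries. The authors deposited, per library, a matrix of UMI counts per gene and cell barcode, made with Cell Ranger 3.0.2 on mm10, per the submitters' processing notes. Of 51005 barcodes, 41 under 300 genes and 330 over 10% mt- UMIs were removed. As doublets, 3531 cells were removed by Scrublet score rank at 0.8% per 1000 cells, since its own threshold marked 433. Of 46838 distinct barcodes 265 occurred in 2 or more libraries. Cells were clustered with Scanpy 1.11.5 (2000 variable genes without the 87 genes and the mt- genes, 30 components, 15 neighbours, Leiden resolution 1), and 1 mixed cluster was clustered again. Classes were named from marker genes, and 108 cells (0.229%) stayed unnamed. The Slc1a3-led cluster was assigned to microglia-like cells after the data were seen.

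UMIs were summed per library and class and tested with edgeR 4.0.16 (quasi-likelihood, TMM scaling, filterByExpr) on all genes, with DESeq2 1.42.0 as an alternative. Time and genotype were additive terms, with 1 library per combination and 2 residual degrees of freedom. Comparisons of levels between classes had the library as a block, with 5. The tests of the difference of the 3 h change had the same block and further terms for class and time, which left fewer. Nothing in the sources used here gives repeated pools. The script was tested on simulated data. The tests of the difference of the 3 h change, the largest-cluster alternative and leaving out the Slc1a3-led cluster were added after seeing the data.

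The members, gene lists and markers were chosen with earlier results of these data known. Genes named in microglia-like cells against naive are from the 12 called members of largest change in each direction, the most abundant member of each complex, the isoform groups and the 13 mt- genes. Elsewhere they are from the 5 called members of largest change in each direction, and from each list the 2 called genes of largest change. Sdha and Atp5b at 1 h, and Ndufa4, Atp5g1, Atp5g3 and Cox4i1 in neutrophil-like cells, were added after their values were seen. The libraries held 35479437 to 48478866 UMIs. Intervals cover counting error only. Other settings tried were DESeq2 size factors, no TMM factors, no filter on low counts, a cell filter of 1000 genes and 5% mt- UMIs, Leiden resolution 0.5, mt- genes left out, and each library left out. Gene positions follow GENCODE vM21 (GRCm38), in which 6 of the 87 genes overlap another protein-coding gene on their strand.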

Additional observations from a re-analysis of the deposited data

Results flagged for a closer look

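The 3 h change of the nuclear sum against naive differed in sign between classes in both genotypes. In microglia-like cells this change was small, from 8119 and 8694 CPM in naive to 7951 and 8613 at 3 h. The 3 h change was lower in microglia-like than in monocyte-like cells by a log2 difference of -0.217, and higher in monocyte-like than in neutrophil-like cells by 0.612. These differences of sums were not tested. The mt- sum also differed in sign, with log2 differences of -0.174 between microglia-like and monocyte-like cells and -0.568 between microglia-like and neutrophil-like cells. In fl/fl microglia-like cells it changed little, from 20513 CPM in naive to 20189 at 3 h. These differences were not tested either. In the fits across all genes the 3 h change differed between neutrophil-like and microglia-like cells for 18 of the nuclear genes and between neutrophil-like and monocyte-like cells for 42 of them (edgeR, adjusted p under 0.05).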

How the results depend on the processing

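No paired analysis was possible because the replicate number is the same for all libraries and so pairs none of them. Comparisons between classes had the library as a block, and those between times were adjusted for genotype. The number of the 87 genes called is given here with the value as reported in brackets. In microglia-like cells at 1 h [38] it was 22 without TMM factors and 2 to 45 with 1 library left out, at 3 h [27] it was 17 with DESeq2 and 8 to 27 with 1 library left out, and for 3 h against 1 h [44] it was 23 to 46 with 1 library left out. Between genotypes [0] it was 1 with no filter on low counts in microglia-like cells, and with 1 library left out 0 to 2 there and 0 to 3 in neutrophil-like cells.

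In monocyte-like cells at 1 h [0] it was 5 with no filter and 0 to 9 with 1 library left out. At 3 h [30] it was 10 with DESeq2, 4 without TMM factors, 47 with no filter, 3 in the largest cluster and 0 to 47 with 1 library left out. For 3 h against 1 h [6] it was 0 with DESeq2, 17 with no filter, 3 with the stricter cell filter, 10 at resolution 0.5, 3 in the largest cluster and 0 to 15 with 1 library left out. In neutrophil-like cells at 3 h [25] it was 9 with DESeq2, 7 in the largest cluster and 4 to 28 with 1 library left out, and for 3 h against 1 h [17] it was 7, 4 and 11 to 20. The difference of the 3 h change from microglia-like cells [18] gave 6 with the stricter filter and 5 to 19 with 1 library left out, and that from monocyte-like cells [42] gave 12 to 48. For neutrophil-like against microglia-like cells [67] the direction reversed without TMM factors, with 65 called, 18 higher and 47 lower. The cause of these moves was not tested, except that fewer libraries or cells enter where they were left out.

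Single genes reversed under none of the alternatives run for them. Of 119 results for single named genes, 20 lost their call with DESeq2, 17 without TMM factors, 14 with the stricter filter and 46 without the fl/fl naive library. Uqcrc1 in microglia-like cells at 1 h, Sdhb there at 3 h and Ndufv3 in neutrophil-like cells at 3 h kept their calls in all alternatives run. Of 36 summed levels, 24 moved beyond their counting interval with the stricter cell filter and 2 at resolution 0.5, and of 18 nuclear sums 12 moved with mt- genes left out. With the stricter filter the neutrophil-like nuclear sums at 3 h, 6913 and 7789 CPM, were still the lowest, against 8794 and 9364 in naive and 9440 and 8693 at 1 h. Naive monocyte-like and neutrophil-like values rest on 110 to 307 cells per library.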
